A study of Homo sapiens with 16 samples.

Results

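The negative regulators of the tumour suppressor p53 were followed as a set of 7 genes: MDM2, MDM4, PPM1D, CCNG1, RCHY1, COP1 and USP7. The 7 were taken by name from 60605 gene identifiers in each deposited table, and none was chosen by a threshold on its values. They were chosen with earlier results of these data known, so the shares of members called below are descriptions of this set. All 7 were present in both tables and passed the filter on low counts in every comparison.

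The libraries are PRO-seq libraries. In this form of nuclear run-on, engaged RNA polymerases extend and label the RNA they are making, so that reads count the polymerases at work on a gene. The cells were LNCaP, an established line from a lymph node metastasis of human prostate cancer. Batch 1 compared mock-treated cells with cells given 6 Gy of ionizing radiation (IR), with 2 replicates per group. Batch 2 had 4 groups of 2 replicates: DMSO vehicle for 90 min, vehicle with 6 Gy, 10 µM enzalutamide for 90 min, and enzalutamide with 6 Gy. The irradiated cultures of batch 2 received the dose 30 min after vehicle or drug was added and were collected 60 min after it. No separate times were stated for batch 1, and its mock group is labelled without a vehicle. Enzalutamide is an antagonist of the androgen receptor used against prostate cancer. All groups were the 1 cell line in whole medium, and nothing in the labels says that the replicates were separate cultures, so the p-values measure only the spread between these samples.

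p53 is held at a low level in unstressed cells because MDM2, an E3 ubiquitin ligase, binds it, blocks its activation domain and marks it for the proteasome. DNA double-strand breaks activate the ATM kinase, which phosphorylates p53 and MDM2 and frees p53 to activate its target genes. MDM2 is itself one of those targets, as are PPM1D and CCNG1, so that the response carries its own brake. MDM4, a relative of MDM2 without strong ligase activity of its own, RCHY1 and COP1 act on p53 as well, and USP7 removes ubiquitin from p53 and MDM2.

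The 8 libraries of batch 1 held 3438642 to 9363458 counts and the 8 of batch 2 held 10494563 to 19905824. In batch 1 each replicate number had a library marked t1 and another marked t2. The labels do not say what t stands for, so both were summed into 1 replicate. Replicates of a group differed by 3.47 to 6.72 times the sampling noise (chi-square per degree of freedom), and none was a repeat of another. Defining genes of the line were transcribed in every sample, with t1 and t2 summed. FOLH1 was at 960.0 to 1373 CPM (counts relative to the library total), TMPRSS2 at 268 to 495 and HOXB13 at 126 to 190.2. KLK2 was at 65.4 to 254 and SLC45A3 at 41.0 to 76.5. KLK3, which encodes prostate-specific antigen, ranged more widely, from 5.38 to 180.5 CPM, and was far higher in batch 1 than in batch 2. Markers of other cells were low. PTPRC of leukocytes was at most 0.913 CPM, KRT5 of basal epithelium at most 0.724, PECAM1 of endothelium at most 5.53 and COL1A1 of fibroblasts at most 10.6. The other markers followed were KRT14 at most 1.70, TP63 at most 7.10 and VIM at most 6.78. The highest values of PECAM1, VIM, TP63 and COL1A1 were above the lowest value of KLK3.

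After IR the 7 regulators fell into 2 kinds. MDM2, PPM1D and CCNG1 rose in both batches and with either vehicle or enzalutamide, by 2.27-fold to 8.66-fold. MDM4, RCHY1, COP1 and USP7 did not pass the test in any of these comparisons, and their fitted changes lay between 0.99-fold and 1.12-fold. For batch 1 this holds with t1 and t2 summed. In t1 and t2 alone, COP1 had log2 changes of -0.512 and 0.802 and USP7 of -0.321 and 0.635. Enzalutamide, averaged over IR, moved none of the 7 regulators past the threshold. In batch 1, 3 of 7 members passed an adjusted p of 0.05 by edgeR's quasi-likelihood test with Benjamini-Hochberg adjustment, all higher, against 2.82% of the 25889 genes tested (2% called higher). With vehicle in batch 2 the count was again 3 of 7, against 1.1% of 28651 genes (0.743% higher), and with enzalutamide it was 3 of 7 against 0.918% (0.625% higher). A fit with the replicate number as a block raised the background to 9.01%, 4.59% and 3.32% in these comparisons and called 3 of 7 members in each. In these bulk libraries, more responding cells and more transcription per cell cannot be told apart.

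**Figure D1:**
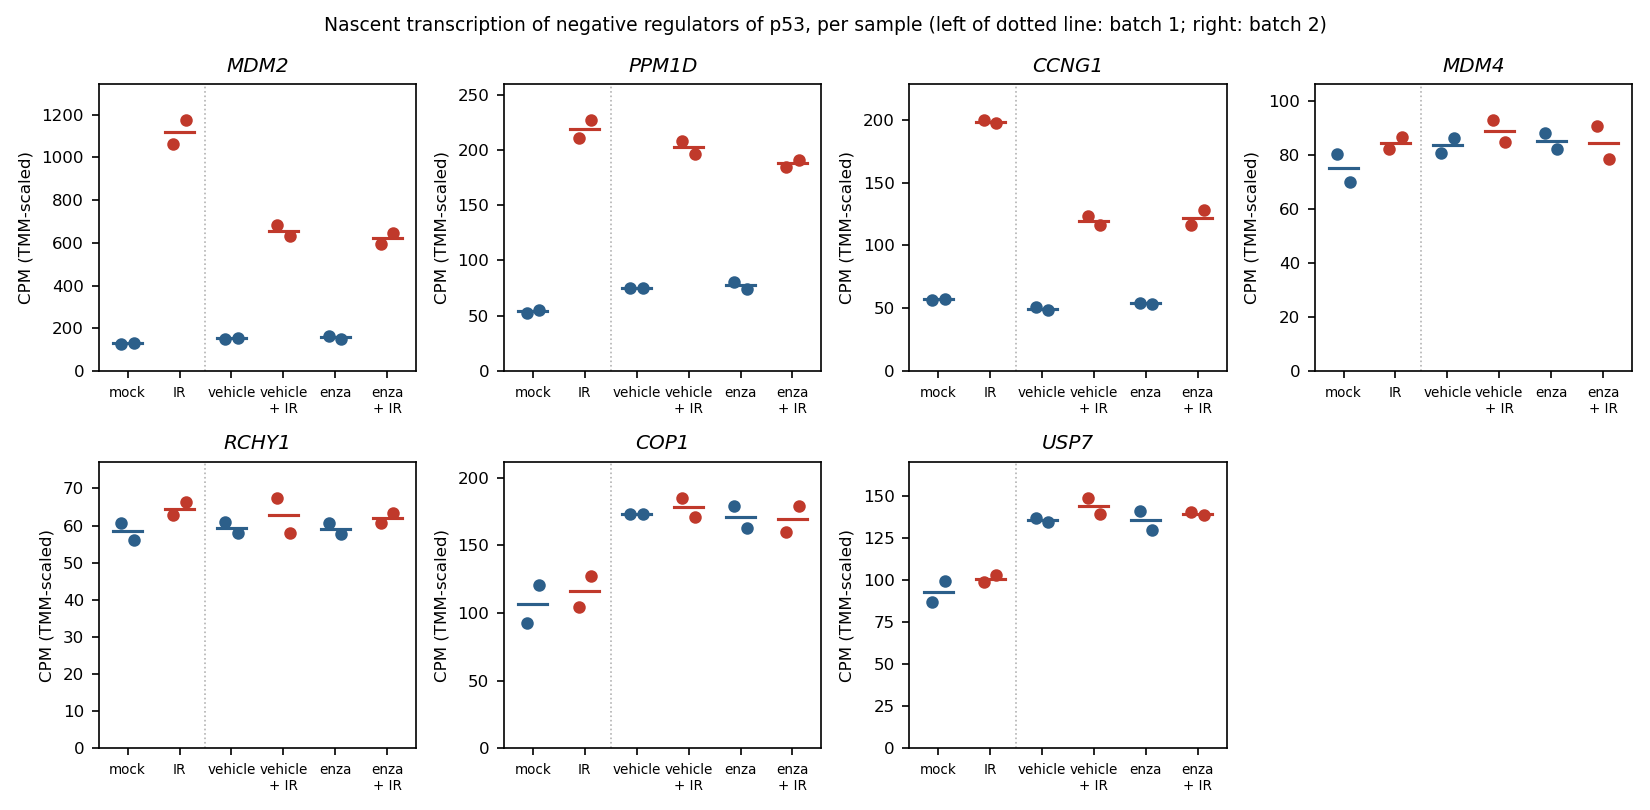
Transcription of the 7 regulators in each sample, in TMM-scaled CPM (counts relative to library size, linear axis from 0); points are replicates, short lines the mean of 2 replicates, blue samples were not irradiated and red ones received 6 Gy, and the dotted line separates the batches, which were scaled separately. MDM2, PPM1D and CCNG1 stand apart after IR in every group pair, with MDM2 at 596 CPM or more in irradiated samples and 163 CPM or less in the others, while the other 4 panels show no such separation by IR across all groups.

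MDM2 (ENSG00000135679) lies at chr12:68808172-68850686 on the plus strand in RefSeq's GRCh38.p14 annotation. Unless another scale is stated, levels here and below are CPM scaled by TMM factors. These factors adjust for differences in composition between libraries of a batch. In batch 1, MDM2 was at 126 and 132 CPM in the mock samples and at 1065 and 1174 CPM after IR. In batch 2 it was at 151 and 156 CPM with vehicle and at 683 and 631 CPM with vehicle and IR. With enzalutamide it was at 163 and 151 CPM, and with enzalutamide and IR at 596 and 647 CPM. The irradiated samples did not overlap the unirradiated ones in any of the 3 pairs of groups, and the unirradiated samples of both batches lay close together. With 2 samples against 2, a lack of overlap alone is common without any effect. Its share over all genes was not counted, here or for the members below.

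The rise of MDM2 was 8.66-fold in batch 1 (95% interval 6.76 to 11.1, log2 SE 0.165, edgeR adjusted p 4.55e-07). With vehicle in batch 2 it was 4.29-fold (3.71 to 4.96, SE 0.0967, edgeR adjusted p 1.63e-07), and with enzalutamide 3.95-fold (3.42 to 4.56, SE 0.0966, edgeR adjusted p 2.53e-07). Ranked by log2 fold change, MDM2 was at place 15 of 25889 genes in batch 1, 24 of 28651 with vehicle and 21 of 28651 with enzalutamide. Its share of all counts went from 0.0126% and 0.013% in the mock samples, where it ranked 1278 and 1256 among all identifiers, to 0.107% and 0.116%, where it ranked 27 in both. In batch 2 the share went from 0.0152% and 0.0155% to 0.0659% and 0.0629% with vehicle, and its rank from 1203 and 1128 to 50 and 58.

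RefSeq lists starts of MDM2 transcripts at and just after 68808172, and internal ones at and just after 68809017, which is 845 bases further on. The 250 bases before each start are shown because MDM2 rose most of the 7, and because the internal promoter is the one known for its p53 response. Capitals mark stretches of 20 bases that differ by at most 3 letters from the p53 consensus of 2 adjoining 10-base copies with no spacer. The consensus is palindromic, so that a search of 1 strand covers both. The windows are chr12:68807922-68808171 and chr12:68808767-68809016, both on the plus strand of GRCh38.p14, from RefSeq.
MDM2 first start: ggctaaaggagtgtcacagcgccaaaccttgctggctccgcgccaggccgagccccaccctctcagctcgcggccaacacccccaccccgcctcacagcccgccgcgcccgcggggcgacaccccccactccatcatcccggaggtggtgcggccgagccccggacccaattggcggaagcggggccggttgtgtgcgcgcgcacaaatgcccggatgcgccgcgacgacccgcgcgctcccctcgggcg
MDM2 internal start: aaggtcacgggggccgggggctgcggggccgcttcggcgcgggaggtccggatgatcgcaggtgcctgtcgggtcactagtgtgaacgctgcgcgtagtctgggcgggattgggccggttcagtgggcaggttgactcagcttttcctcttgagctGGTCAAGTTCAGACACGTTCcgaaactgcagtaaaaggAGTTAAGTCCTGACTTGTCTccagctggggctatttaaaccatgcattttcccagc
The internal window held 2 such stretches. The closer match, at chr12:68808923-68808942, was 2 letters off and the other, at chr12:68808961-68808980, was 3 letters off, with no shared bases. Of 35116 windows of the same length over all RefSeq starts, 0.561% held a stretch at most 2 letters off and 4.36% one at most 3 letters off. The best stretch before the first start was 5 letters off. A match of letters is a description and not evidence of binding, and the counts are per gene, so the transcription from each start was not measured separately.

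PPM1D (ENSG00000170836, chr17:60600193-60666280, plus strand) encodes WIP1, a phosphatase that removes phosphates placed by ATM on p53, MDM2 and other damage response proteins. It was at 52.3 and 55.5 CPM in the mock samples and at 210.5 and 227 CPM after IR in batch 1. In batch 2 it was at 75.4 and 74.9 CPM with vehicle against 208 and 196 CPM with vehicle and IR, and at 80.6 and 74.6 CPM with enzalutamide against 185 and 191 CPM with enzalutamide and IR. The groups did not overlap in any of these pairs. The rise was 4.05-fold in batch 1 (3.37 to 4.88, SE 0.123, edgeR adjusted p 1.18e-06), 2.69-fold with vehicle (2.37 to 3.06, SE 0.0849, edgeR adjusted p 6.99e-07) and 2.41-fold with enzalutamide (2.12 to 2.74, SE 0.0853, edgeR adjusted p 3.03e-06).

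CCNG1 (ENSG00000113328, chr5:163437571-163457640, plus strand) encodes cyclin G1, which recruits the phosphatase PP2A to MDM2. It was at 56.9 and 57.3 CPM in the mock samples and at 199.6 and 197 CPM after IR in batch 1. The batch 2 values were 51.0 and 48.3 CPM with vehicle, 123 and 116 CPM with vehicle and IR, 54.1 and 53.5 CPM with enzalutamide, and 116 and 128 CPM with enzalutamide and IR. Again no irradiated sample overlapped an unirradiated one. The rise was 3.47-fold in batch 1 (2.91 to 4.15, SE 0.117, edgeR adjusted p 1.85e-06), 2.41-fold with vehicle (2.11 to 2.75, SE 0.0881, edgeR adjusted p 2.97e-06) and 2.27-fold with enzalutamide (1.99 to 2.59, SE 0.0885, edgeR adjusted p 7.67e-06). In batch 1 and in both arms of batch 2, the 95% interval of MDM2 lay above those of PPM1D and CCNG1, whose intervals overlapped each other. The calls of MDM2, PPM1D and CCNG1 held in all 162 alternatives, counted over 12 pairs of a member and 1 of 4 IR comparisons. Each fit is counted once per member and the comparisons share samples, so these are not independent.

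For comparison with MDM2, the 250 bases before the starts of PPM1D (chr17:60599943-60600192) and MDM4 (chr1:204516156-204516405) are shown, a member that rose and a member that did not pass the test. For CCNG1 only the closest 20 bases are shown (chr5:163437409-163437428). All are on the plus strand of GRCh38.p14, from RefSeq, and capitals in the CCNG1 line mark its closest stretch.
PPM1D upstream: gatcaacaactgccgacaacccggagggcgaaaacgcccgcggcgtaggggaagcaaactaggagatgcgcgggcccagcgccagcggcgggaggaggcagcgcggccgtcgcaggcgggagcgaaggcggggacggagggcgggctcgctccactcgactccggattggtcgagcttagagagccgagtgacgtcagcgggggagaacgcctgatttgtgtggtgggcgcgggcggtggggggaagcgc
MDM4 upstream: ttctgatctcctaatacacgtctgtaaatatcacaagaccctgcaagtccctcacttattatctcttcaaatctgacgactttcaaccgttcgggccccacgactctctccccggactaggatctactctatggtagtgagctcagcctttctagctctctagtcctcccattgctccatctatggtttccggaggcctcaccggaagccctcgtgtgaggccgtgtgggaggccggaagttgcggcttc
CCNG1 closest stretch: GGGGAATTTGAGGCCAGATA
None of these windows held a stretch at most 3 letters off the p53 consensus. The best was 4 letters off before PPM1D, 5 before MDM4 and 6 before CCNG1. A stretch at most 4 letters off stood in 22.1% of all windows. The best stretches were 5 letters off before RCHY1, 7 before COP1 and 4 before USP7, over all their listed starts. Positions outside these windows were not searched.

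MDM4 (ENSG00000198625, chr1:204516406-204558120, plus strand) encodes MDMX, which binds the p53 activation domain and pairs with MDM2. It was at 80.4 and 70.2 CPM in the mock samples and at 82.1 and 86.7 CPM after IR in batch 1. Batch 2 gave 80.7 and 86.4 CPM with vehicle, 92.8 and 84.9 with vehicle and IR, 88.3 and 82.1 with enzalutamide, and 90.6 and 78.5 with enzalutamide and IR. The batch 2 groups overlapped, and in batch 1 the IR samples lay just above the mock ones. Its change was 1.12-fold in batch 1 (0.951 to 1.32, edgeR adjusted p 0.66) and 1.06-fold with vehicle (0.92 to 1.23, edgeR adjusted p 0.759).

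Within a sample, the counts of MDM2 per count of MDM4 show the unequal change of these paralogs without any scaling between libraries. The ratio was 1.57 and 1.88 in the mock samples and 13.0 and 13.5 after IR in batch 1. With vehicle it was 1.87 and 1.8, and with vehicle and IR 7.36 and 7.43. With enzalutamide it was 1.85 and 1.84, and with enzalutamide and IR 6.58 and 8.24. All 6 unirradiated samples lay between 1.57 and 1.88, and all 6 irradiated ones at 6.58 or above. The ratio compares samples with each other and not the levels of the 2 genes, since the counted part of each gene is not known.

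RCHY1 (ENSG00000163743, chr4:75479033-75514715, minus strand) encodes PIRH2, a RING-finger ubiquitin ligase of p53. It was at 60.8 and 56.1 CPM in the mock samples and 62.9 and 66.3 CPM after IR in batch 1, and between 57.7 and 67.5 CPM in all 8 samples of batch 2. The groups overlapped in both arms of batch 2, and in batch 1 the IR samples lay just above the mock ones. Its change was 1.11-fold in batch 1 (0.947 to 1.29, edgeR adjusted p 0.685), 1.06-fold with vehicle (0.916 to 1.22, edgeR adjusted p 0.784) and 1.05-fold with enzalutamide (0.907 to 1.21, edgeR adjusted p 0.876). COP1 (ENSG00000143207, chr1:175944831-176207286, minus strand) encodes another RING-finger ligase of p53 that also marks further transcription factors for degradation. It was at 92.5 and 121 CPM in the mock samples and at 105 and 128 CPM after IR, and between 160.1 and 185 CPM in batch 2. Its groups overlapped in each pair, with a change of 1.09-fold in batch 1 (0.874 to 1.36, edgeR adjusted p 0.847) and 1.03-fold with vehicle (0.896 to 1.18, edgeR adjusted p 0.902).

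USP7 (ENSG00000187555, chr16:8892097-8963906, minus strand) encodes a deubiquitinase that stabilizes MDM2, MDM4 and p53. It was at 86.9 and 99.2 CPM in the mock samples and at 98.5 and 103 CPM after IR in batch 1. Batch 2 gave 137 and 134 CPM with vehicle, 149 and 139 with vehicle and IR, 141 and 129.7 with enzalutamide, and 140.4 and 138 with enzalutamide and IR. The samples overlapped in batch 1 and in the enzalutamide arm, and with vehicle the IR samples were the higher ones. The change was 1.08-fold in batch 1 (0.911 to 1.28, edgeR adjusted p 0.808) and 1.06-fold with vehicle (0.938 to 1.21, edgeR adjusted p 0.713).

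With both batches in 1 model and batch as a covariate, which uses the same mock, vehicle and irradiated samples again, 3 of 7 members passed, against 4.05% of 29195 genes (2.39% higher), or 6.69% with the replicate block, which called the same 3. The changes were 6.02-fold for MDM2 (edgeR adjusted p 3.03e-10), 3.25-fold for PPM1D (3.37e-10) and 2.86-fold for CCNG1 (5.09e-10). For MDM4, RCHY1, COP1 and USP7 the 95% intervals lay between 0.925-fold and 1.20-fold. With t1 and t2 summed, the intervals of these 4 genes also stayed inside a change of 1.5-fold in either direction within each batch. In batch 1 the t1 and t2 libraries alone gave log2 changes of -0.512 and 0.802 for COP1 and -0.321 and 0.635 for USP7. They gave -0.0048 and 0.393 for MDM4 and 0.179 and 0.149 for RCHY1. The summed intervals therefore do not describe either kind of library alone.

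**Figure D2:**
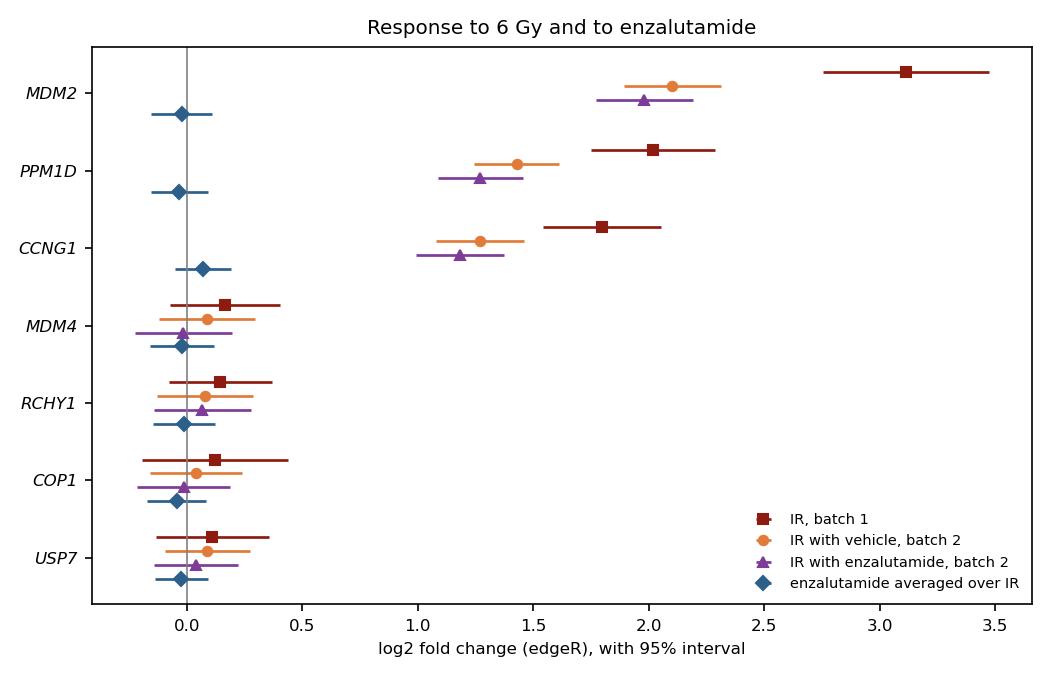
Log2 fold changes of the 7 regulators fitted by edgeR, with 95% intervals as horizontal bars: IR in batch 1 (squares), IR with vehicle (circles) and with enzalutamide (triangles) in batch 2, and enzalutamide averaged over IR (diamonds). MDM2, PPM1D and CCNG1 lie to the right of 0 in the 3 IR comparisons, furthest in batch 1, and all enzalutamide intervals include 0.

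The size of the rise differed between the batches for MDM2. Its log2 change was larger in batch 1 than with vehicle in batch 2 by 0.99 (SE 0.172, 95% interval 0.63 to 1.35, edgeR adjusted p 0.0268), a ratio of the folds of 1.99 (1.54 to 2.55). MDM2 was the 1 member of 7 that passed, against 0.106% of 29195 genes (0.0548% higher). The difference was 0.57 for PPM1D (SE 0.147, edgeR adjusted p 0.37) and 0.50 for CCNG1 (SE 0.14, edgeR adjusted p 0.468), which did not pass. With the replicate number as a block, which called 0.329% of genes, MDM2 (edgeR adjusted p 9.27e-05), PPM1D (0.0149) and CCNG1 (0.0383) all passed. For MDM4, RCHY1, COP1 and USP7 the difference was between -0.003 and 0.06. The samples of batch 1 differ from those of batch 2 in batch, in the stated vehicle and in the depth of single libraries, though depths overlapped after summing. They differ too in how libraries were made up from t1 and t2, and a time after IR is stated for batch 2 only. These differences cannot be told apart. The batches also differed in KLK3. It was at 181 and 178 CPM in the mock samples and at 17.1 and 13.5 CPM with vehicle on the TMM scale. Whether what sets the level of KLK3 has a part in the MDM2 difference was not tested.

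The call on MDM2 between batches rested on few samples. It was lost without replicate 2 of the batch 1 IR group (0.90, edgeR adjusted p 0.176), without vehicle replicate 3 (0.99, edgeR adjusted p 0.0909) or 4 (0.97, edgeR adjusted p 0.128), and without replicate 3 (1.05, edgeR adjusted p 0.0728) or 4 (0.89, edgeR adjusted p 0.197) of IR with vehicle. It was also lost with RLE size factors (0.93, edgeR adjusted p 0.0691) and with the t1 libraries alone (0.77, edgeR adjusted p 0.0581). The direction was the same in every one of the 15 alternatives, and 8 of them kept the call.

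Enzalutamide was tested to see whether blocking the androgen receptor changes these genes, with or without IR. Averaged over IR, 0 of 7 members passed by edgeR or by DESeq2, and 0 had an unadjusted edgeR p under 0.05. The background was 0.0628% of 28651 genes (18 genes, all lower), or 0.949% with the replicate block, which also called no member. The fitted changes were -0.02 on the log2 scale for MDM2, MDM4 and USP7, -0.03 for PPM1D, 0.07 for CCNG1, -0.01 for RCHY1 and -0.04 for COP1, with edgeR adjusted p-values between 0.896 and 0.992. Their 95% intervals lay between 0.889-fold and 1.14-fold. In the same comparison, TMPRSS2 fell by 0.58 on the log2 scale (SE 0.0622, edgeR adjusted p 0.00123) and SLC45A3 fell by 0.57 (SE 0.0561, edgeR adjusted p 0.000828). Both are androgen-regulated genes of prostate cells, and they were the 2 that passed of 6 LNCaP identity genes described here.

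The test of the interaction asks whether the response to IR differed with the drug. No member passed by edgeR, and 0% of 28651 genes did, with 343 genes and 0 members at an unadjusted p under 0.05. DESeq2 called 0 genes and the replicate block 1 gene (0.00349%), not a member. All 7 estimates were negative, at -0.12 for MDM2 (SE 0.132), -0.16 for PPM1D (SE 0.119) and -0.09 for CCNG1 (SE 0.124). Over all 28651 genes, 13666 estimates were positive and the median was -0.009. Those of MDM4, CCNG1, RCHY1, COP1 and USP7 changed sign when 1 or another sample was left out. The ratio of the folds with and without the drug was 0.92 for MDM2, with a 95% interval from 0.755 to 1.12, and for no member did the interval reach 1.5-fold in either direction. The estimates share samples of 4 groups and are not independent of each other.

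In batch 1 the t1 and t2 libraries gave different sizes of response for several members. The rise of MDM2 was 8.33-fold and 6.55-fold for replicates 1 and 2 in the t1 libraries, and 9.18-fold and 11.2-fold in the t2 libraries. PPM1D rose less in t1 (3.19-fold and 3.26-fold) than in t2 (5.29-fold and 4.94-fold). CCNG1 had the opposite order, with 4.60-fold and 4.38-fold in t1 and 2.69-fold and 2.57-fold in t2. So CCNG1 rose more than PPM1D in both t1 replicates and less in both t2 replicates. All 3 passed in either kind of library alone, in fits that called 17.3% of 23134 genes with t1 and 44.7% of 21930 with t2.

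Of the members that did not pass in the summed counts, USP7 and COP1 changed direction between t1 and t2. USP7 was at 105 and 119 CPM in mock and 89.5 and 86.7 CPM after IR in the t1 libraries, and at 73.2 and 75.6 CPM in mock and 113 and 117 CPM after IR in the t2 libraries. COP1 was at 100.3 and 151 CPM in mock and 91.5 and 82.6 CPM after IR in t1, and at 85.6 and 83.5 CPM in mock and 127 and 167 CPM after IR in t2. In both genes the mock samples were the higher ones in t1 and the lower ones in t2, with no overlap. With 2 samples against 2 such separation is common without any effect, and its share over all genes was not counted. The fits called 17.3% of all genes tested with t1 alone and 44.7% with t2 alone. With t1 alone COP1 was called lower (log2 fold change -0.51, edgeR adjusted p 0.0489) and USP7 was not called (-0.32, edgeR adjusted p 0.137). With t2 alone COP1 (0.80, edgeR adjusted p 0.000371), USP7 (0.64, edgeR adjusted p 0.000393) and MDM4 (0.39, edgeR adjusted p 0.0119) were called higher, so that 6 of 7 members passed in that fit. MDM4 with t1 alone was at -0.005 (edgeR adjusted p 0.987). RCHY1 was not called in either, at 0.18 with t1 (edgeR adjusted p 0.412) and 0.15 with t2 (edgeR adjusted p 0.309).

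The difference between t2 and t1 tended to be higher in longer genes, up to a span of 200 kb. Responses in this paragraph are from counts relative to the library total, with a pseudocount of 0.5 and no TMM scaling. They therefore differ from the edgeR values above and from the TMM-scaled ratios plotted for each replicate number. For RCHY1 they were 0.257 with t1 and 0.054 with t2, where edgeR gave 0.179 and 0.149. For MDM4 they were 0.068 and 0.303, where edgeR gave -0.0048 and 0.393. Over 13537 genes with a RefSeq span (87.4% of those that averaged 50 counts or more in a library), the log2 response in t2 minus that in t1 had a median of -1.02 for genes up to 10 kb and of 0.46 for genes of 100 to 200 kb. For genes over 200 kb, the class of COP1, it was 0.37. Spearman's rho with the span was 0.551, as a description across genes that share the same 8 libraries. Among the members, the longest had the highest values: COP1, with a span of 262456 bases, had a t2 minus t1 difference of 1.08, USP7 (71810 bases) 0.77 and PPM1D (66088 bases) 0.47. MDM2 (42515 bases) was at 0.26, MDM4 (41715 bases) at 0.23, RCHY1 (35683 bases) at -0.20 and CCNG1 (20070 bases) at -0.97, where the median of their length class, 20 to 50 kb, was -0.14. CCNG1 lies at the lower edge of that class, and the median for genes of 10 to 20 kb was -0.51. What t1 and t2 are, and so what sets this pattern, was not tested.

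**Figure D3:**
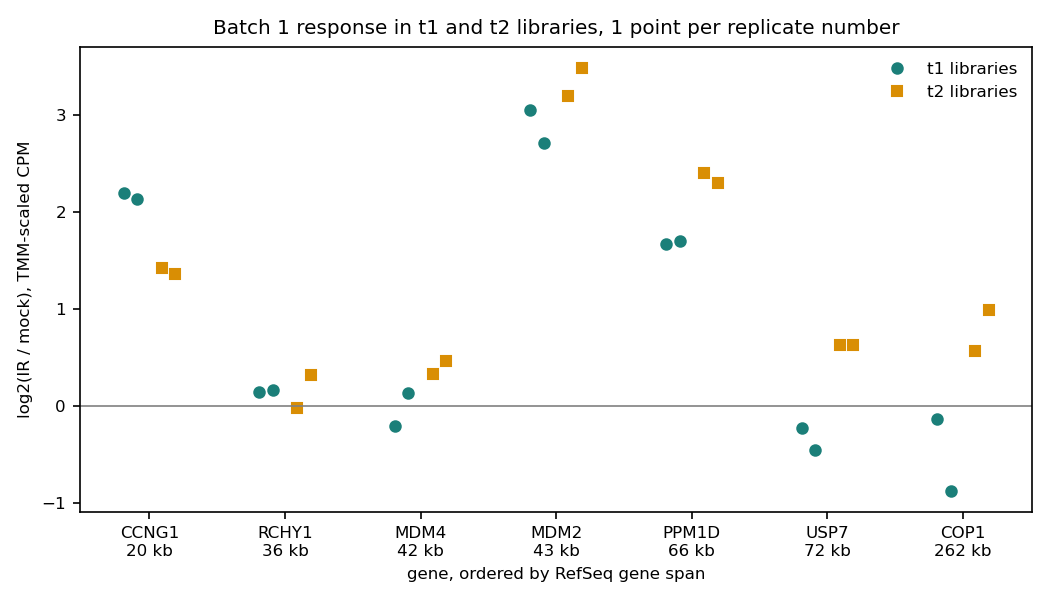
Log2 ratio of IR to mock in batch 1 (TMM-scaled CPM) for each replicate number, in t1 libraries (circles) and t2 libraries (squares), with genes ordered from the shortest to the longest RefSeq span. CCNG1 is lower in t2 and PPM1D, USP7 and COP1 are higher, with USP7 and COP1 below 0 in t1 and above 0 in t2.

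Several members overlap or lie next to other genes, and their reads could be shared where strand was not used. CPM, the carboxypeptidase gene that overlaps MDM2, had a log2 change after IR of -0.04 in both batches together (edgeR adjusted p 0.951). THAP6, which overlaps RCHY1, was at -0.11 (edgeR adjusted p 0.518), and USP7-AS1 at -0.20 (edgeR adjusted p 0.524). NUDCD2, which overlaps CCNG1, fell by 0.33 on the log2 scale (SE 0.0825, edgeR adjusted p 0.0256). HMMR, which encodes a mitotic spindle and hyaluronan receptor protein and lies 2992 bases beyond CCNG1, fell by 1.19 (SE 0.0918, edgeR adjusted p 2.31e-08). BCAS3 (-0.04) and LINC01999 (0.03), on either side of PPM1D, did not pass. The other neighbours tested, RNA5SP74 (-0.51, edgeR adjusted p 0.123), COP1-DT (-0.09) and HAPSTR1 (0.12), did not pass either. No neighbour that could be tested was called higher, where 2.39% of all genes were. At that share, so few neighbours with no higher call do not stand apart from other genes.

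The 3 members that rose also had nearly the same profile over the 12 samples, each batch centred on its own mean of log2(CPM + 1). Pearson's r was 0.9995 between MDM2 and PPM1D, 0.997 between MDM2 and CCNG1 and 0.997 between PPM1D and CCNG1. Among 17426 genes, PPM1D was the most like MDM2, followed by RPS27L, CCNG1, XPC and ZNF337. Besides MDM2, RPS27L and CCNG1, the genes most like PPM1D were ACER2 and DCP1B, and those most like CCNG1 included BLOC1S2 and HELZ-AS1. These are descriptions over 12 points that share libraries and fall into irradiated and unirradiated clusters, so that any gene with a strong IR response correlates with MDM2. The genes named here that are not among the 7 regulators rose by different amounts, from 1.05 for ZNF337 to 2.04 for RPS27L on the log2 scale in both batches together.

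The rest of the p53 and MDM2 machinery was followed by lists, in the model of IR over both batches, where the median log2 change over all genes tested was -0.02 and 4.05% of 29195 genes passed in either direction. At that share, a list of this size with no gene called does not stand apart from other genes. Of 13 further ubiquitin ligases of p53, 0 passed by edgeR in either direction, with a median of 0.04. The most transcribed of them by count were HUWE1 (0.04), WWP1 (0.09) and TRIM24 (0.02). Of 10 further deubiquitinases of p53 or MDM2, none passed (median -0.01), among them USP15 (0.05), USP24 (0.08) and USP10 (-0.02), which acts on p53 outside the nucleus. Of 12 inhibitors of MDM2, such as ribosomal proteins that bind it, none passed (median 0.07), with NPM1 at 0.14 and RPS3 and NCL at 0.07 each. Of 13 kinases of the pathway none passed (median 0.03), among them PRKDC (0.14), the catalytic subunit of DNA-PK, HIPK2 (-0.08) and CSNK1D (-0.007).

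Of 10 further PPM phosphatases and partners of cyclin G, 1 passed. PPP2CB, a catalytic subunit of PP2A, was at 58.6 and 59.9 CPM in the mock samples and 83.6 and 90.9 CPM after IR in batch 1. The batch 2 values were 80.4 and 86.5 CPM with vehicle and 95.3 and 105 CPM with vehicle and IR. It rose by 0.39 on the log2 scale over both batches (SE 0.0764, edgeR adjusted p 0.0029) and passed in batch 1 (0.56, edgeR adjusted p 0.00954), while with vehicle alone the value was 0.26 (edgeR adjusted p 0.266). CCNG2, the paralog of CCNG1, was at -0.27 (edgeR adjusted p 0.275), PPP2R5C, a PP2A regulatory subunit, at -0.09 and CCNI at -0.09. Of 12 p53 family members and acetylation cofactors none passed (median 0.04), with CREBBP at 0.09, EP300 at 0.02 and PPP1R13B at 0.15.

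The effectors of p53 give the scale of the response in the same samples, on a list chosen with earlier results of these data known. Of 26, 25 rose over both batches, where 2.39% of all genes did, by 0.85 to 3.32 on the log2 scale, and the median of the list was 1.70. They were AEN, BAX, BBC3, BTG2, CDKN1A, DDB2, FAS, FDXR, GDF15, PHLDA3, PLK3, POLH, RPS27L, RRM2B, SESN1, SESN2, SPATA18, TIGAR, TNFRSF10A, TNFRSF10B, TP53I3, TP53INP1, TRIAP1, XPC and ZMAT3. CDKN1A, the cell cycle inhibitor p21, was at 3.32, TP53INP1 at 1.46 and the death receptor gene TNFRSF10B at 1.10, so that MDM2 at 2.59 was above the median of the effectors, PPM1D at 1.70 beside it and CCNG1 at 1.52 below it. PLK2 did not pass (0.22, edgeR adjusted p 0.24). Between the batches, the log2 change was larger in batch 1 for 25 of the 26 effectors, with a median difference of 0.41 and a highest of 0.80, but none passed by edgeR. Of the 6 LNCaP identity genes, 3 were lower after IR in both batches together, where 1.66% of all genes were called lower: KLK3 (-0.41, edgeR adjusted p 0.0115), SLC45A3 (-0.32, 0.00917) and TMPRSS2 (-0.30, 0.0226). Of 7 markers of other cells, 5 could be tested and none passed.

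**Figure D4:**
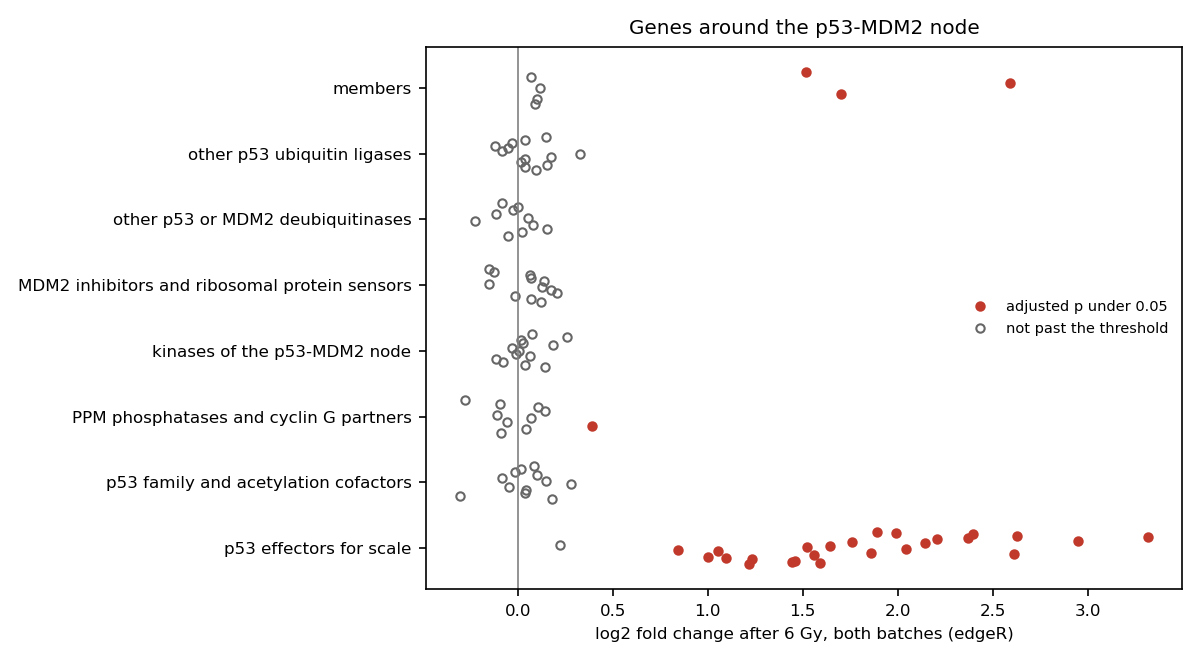
Log2 fold change after 6 Gy over both batches, as fitted by edgeR, for the 7 regulators and the other gene lists, with 1 point per gene, filled where the adjusted p is under 0.05 (vertical scatter within a list has no meaning). In the 6 other lists of the pathway the one filled point is PPP2CB at 0.39, while 3 of 7 regulators and 25 of 26 effectors are filled.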

How the data were processed

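PRO-seq of LNCaP cells gave 16 libraries, and the authors deposited 1 table of counts per gene for each batch, judged to be raw counts because the values are whole numbers with differing totals. Per the submitters' processing notes, cutadapt 1.8.1, Bowtie2 2.4.4, SAMtools 1.9 and build hg38 were used. The counting tool, annotation, counted part of a gene, use of strand and treatment of duplicates are not given in the sources used here, so counts of overlapping and antisense genes are uncertain. Of 60605 identifiers, 60463 matched a symbol table. Positions, neighbours and sequences are RefSeq's, on GRCh38.p14, the same build as hg38.

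The t1 and t2 counts of a replicate were summed. Genes were filtered with filterByExpr (minimum count 10), scaled by TMM and tested with edgeR 4.0.16 in R 4.3.3 (glmQLFit, glmQLFTest, two-sided), with Benjamini-Hochberg adjustment over all genes and a threshold of 0.05. All 8 libraries of batch 2 shared a model. SEs were derived from the fold change and F statistic, and intervals are 95%. The steps were tested on simulated data. Alternatives were RLE factors, total counts, no filter, DESeq2 1.42.0, the 2 compared groups alone, t1 or t2 alone, each replicate left out, and the replicate number as a block. Replicate numbers come from the labels and are shared between groups of a batch. Same-numbered samples deviated together, with correlations across genes of 0.258 to 0.453 for 6 pairs of groups in batch 2 and 0.365 for 1 in batch 1.

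The members and gene lists were chosen with earlier results of these data known. Every member is named. Some planned genes are not reported here. From other lists, genes are named that passed after IR in both batches, and otherwise up to 3 with the highest mean count. PLK2 was named after its values were seen. Like genes are the 5 with the highest r among genes with a mean of at least 50 counts, and neighbours are the nearest on each side and any overlapping.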

Additional observations from a re-analysis of the deposited data

Results flagged for a closer look

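The response of MDM2 to IR differed between the batches by a test of the difference itself. The response was also larger in batch 1 for PPM1D (0.567), CCNG1 (0.502) and 25 of 26 p53 effectors (median of the list 0.409). None of these passed in the main fit, so a larger response in batch 1 was not particular to MDM2. For MDM2 it was larger in batch 1 than with vehicle in batch 2 by 0.989 on the log2 scale (SE 0.172, edgeR adjusted p 0.0268). DESeq2 gave 0.934 (adjusted p 1.49e-05) and the t2 libraries alone 1.25, while the t1 libraries alone gave 0.768 (edgeR adjusted p 0.0581). Over the 15 alternatives the value lay between 0.768 and 1.25, always with the larger response in batch 1, and the adjusted p between 1.49e-05 and 0.197.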

How the results depend on the processing

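MDM2, PPM1D and CCNG1 passed in all 162 alternatives of the 12 pairs of these members and 4 IR comparisons, which share fits and samples. Without a filter the number of genes called was 1157 for IR in batch 1, 624 with vehicle, 556 with enzalutamide, 230 for the drug averaged over IR, 32 for the interaction and 119 for the difference between batches. Under the replicate block, which rests on the pairing described with the methods, these were 2332, 1315, 951, 272, 1 and 96, with 1954 for both batches, and 3 members passed in the difference between batches. The block changed no other call of a member. DESeq2 called 58 genes for the drug, and RLE factors 0 members between batches. With t1 alone, 3995 genes passed in batch 1 and 452 between batches. With t2 alone these were 9800 and 5646, with 657 for both batches, 6 members in batch 1 and 4 between batches.

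Signs turned as follows, and the cause was not tested. With t1 alone, batch 1 gave MDM4 -0.0048, COP1 -0.512 and USP7 -0.321, both batches COP1 -0.249 and USP7 -0.131, and the difference between batches MDM4 -0.122 and COP1 -0.586. With t2 alone, USP7 was 0.55 between batches. With total counts, RCHY1 was 0.00123 for the drug and 0.00653 for the interaction, and USP7 0.0639 between batches. With RLE factors, MDM4 was -0.00122 and RCHY1 -0.0129 between batches, and with DESeq2 -0.00118 and -0.0129.

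Leaving out each replicate in turn, genes called ran from 587 to 1509 (without mock replicate 2) for batch 1, 161 (without IR with vehicle replicate 4) to 511 (without enzalutamide replicate 4) with vehicle, 139 (without enzalutamide with IR replicate 4) to 434 (without enzalutamide replicate 4) with enzalutamide, 7 (without enzalutamide with IR replicate 3) to 36 (without enzalutamide replicate 3) for the drug and 0 to 4 (without enzalutamide replicate 4) for the interaction, and members called between batches from 0 to 1 (MDM2 0.888 to 1.07). Small values changed sign: in batch 1 COP1 ran from -0.0599 to 0.33; with vehicle RCHY1 from -0.0331 to 0.182 and COP1 from -0.0178 to 0.0952; with enzalutamide MDM4 from -0.0932 to 0.0889, COP1 from -0.0945 to 0.0921 and USP7 from -0.0133 to 0.109. For the drug, RCHY1 ran from -0.0609 to 0.0356, MDM2 from -0.058 to 0.0138, MDM4 from -0.0593 to 0.0165, PPM1D from -0.0718 to 0.00118 and USP7 from -0.0535 to 0.0014. For the interaction, RCHY1 ran from -0.107 to 0.104, COP1 from -0.134 to 0.0549, USP7 from -0.105 to 0.0175, CCNG1 from -0.152 to 0.00966 and MDM4 from -0.18 to 0.00088. In both batches COP1 ran from -0.00353 to 0.146. Between batches COP1 ran from -0.12 to 0.275, MDM4 from -0.0542 to 0.154, RCHY1 from -0.107 to 0.16 and USP7 from -0.0957 to 0.106. With 2 samples per group, 1 sample carries much of each estimate of the spread, and the single libraries of batch 1 were the less deep. With t1 and t2 summed, the batch 1 samples held 8022989 to 16851473 counts and overlapped the 10494563 to 19905824 of batch 2.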
